A study of Mus musculus with 64 samples.

Results

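Striatal punches rich in the RNA of the myelin gene Mobp, taken as a stand-in for white matter, were set against punches poor in it within a single cohort of mice. CPM values (counts of a gene scaled to all gene reads of the mouse) were ranked for Mobp over 16 mice. The 5 mice with the highest values (Mobp-high) were compared with the 5 with the lowest (Mobp-low), so 10 of 16 mice entered the comparison and 6 lay in between. The Mobp-high group held 3 N/N and 2 J/J mice, 3 of them female and 2 male. The Mobp-low group held 2 N/N and 3 J/J mice, 2 of them female and 3 male. All mice came from an F2 intercross of the C57BL/6NJ and C57BL/6J substrains and were homozygous at a selected locus. N/N mice carried the mutant B6NJ allele, which the submitters call binge-prone. J/J mice carried the wild-type B6J allele, which they call binge-resistant. The mice were 69 to 100 days old, and the labels name no drug or diet. On day 24 each mouse spent 5 min on the EPM (elevated plus maze, which measures anxiety-like behaviour), after which its striatum was punched and held in RNAlater for 48 h. Poly(A) RNA was sequenced in 4 runs per mouse, which were summed. Because the mice were picked by an RNA of the same libraries, Mobp itself received no test. A gene called below is one whose level went with Mobp over these 10 mice, not one that responded to a treatment.

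Myelin is the lipid-rich membrane that oligodendrocytes wrap around axons. The striatum is crossed by bundles of myelinated fibres of the internal capsule and lies under the corpus callosum, so a striatal punch holds both grey matter with medium spiny neurons and white matter. Mobp encodes myelin-associated oligodendrocyte basic protein, an abundant small protein of compact central myelin that is made late, by mature oligodendrocytes, from RNA carried out into the myelin processes. Precursor cells, marked by Pdgfra and Cspg4, lie in grey and white matter alike and make little of it.

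The Mobp gene (ENSMUSG00000032517.16) lies on the plus strand of chromosome 9, from 120149707 to 120181484 in GRCm38 (GENCODE M21), and a processed transcript, Gm38642, overlaps its 3′ end on the same strand. Its promoter is shown with those of Opalin, Ermn and Prr18, 3 genes whose RNA was higher in every Mobp-high than in every Mobp-low punch. Each window runs from 250 bases before to 50 after the annotated start in RefSeq GRCm38.p6 and is written along the gene's own strand. SOX factors such as Sox10, which drives myelin genes, bind sites with the core letters ACAAAG or ACAATG. Matches to these letters on either strand are in capitals (CTTTGT and CATTGT are the same cores read on the other strand).
Mobp, chr9:120149492-120149791, plus strand: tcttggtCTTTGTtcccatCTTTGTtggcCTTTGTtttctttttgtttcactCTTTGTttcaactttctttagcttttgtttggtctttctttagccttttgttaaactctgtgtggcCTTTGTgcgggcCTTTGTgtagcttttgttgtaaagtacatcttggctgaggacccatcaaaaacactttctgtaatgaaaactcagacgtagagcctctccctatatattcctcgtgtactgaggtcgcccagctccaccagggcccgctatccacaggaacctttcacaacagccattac
Opalin, chr19:41077064-41077363, minus strand: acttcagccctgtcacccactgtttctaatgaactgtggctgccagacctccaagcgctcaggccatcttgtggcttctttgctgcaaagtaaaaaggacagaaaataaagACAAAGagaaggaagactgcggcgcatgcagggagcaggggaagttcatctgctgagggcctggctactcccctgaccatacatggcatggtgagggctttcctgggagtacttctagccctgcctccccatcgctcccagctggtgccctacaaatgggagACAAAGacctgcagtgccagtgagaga
Ermn, chr2:58052815-58053114, minus strand: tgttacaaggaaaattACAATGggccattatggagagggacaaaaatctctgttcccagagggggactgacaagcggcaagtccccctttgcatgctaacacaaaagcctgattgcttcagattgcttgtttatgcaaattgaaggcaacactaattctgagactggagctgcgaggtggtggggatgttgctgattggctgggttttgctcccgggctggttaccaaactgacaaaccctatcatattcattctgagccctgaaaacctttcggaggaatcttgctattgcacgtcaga
Prr18, chr17:8340156-8340455, plus strand: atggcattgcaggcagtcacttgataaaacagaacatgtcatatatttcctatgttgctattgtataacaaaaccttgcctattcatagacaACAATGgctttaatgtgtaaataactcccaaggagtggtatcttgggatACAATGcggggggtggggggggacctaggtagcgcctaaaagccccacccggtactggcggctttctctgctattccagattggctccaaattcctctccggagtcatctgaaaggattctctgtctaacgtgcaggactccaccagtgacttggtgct
The Mobp window held 6 matches, all to ACAAAG and all written as CTTTGT. The Opalin window held 2, the Ermn window 1 and the Prr18 window 2. Prr18 had 2 windows, and the one shown came first when they were sorted by number of matches. At least 1 match stood in 28.6% of 32851 mouse promoter windows, and the Mobp window was the only 1 of them with 6 or more. Among genes called higher in Mobp-high punches, 34.8% of the 132 with a window held a match, against 20.9% of the 211 called lower and 24.0% of the 11465 tested. A gene with several windows counted as holding a match if any of them did. A match of letters is a description of the window and not a binding site.

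Mobp stood at 509, 430, 416, 406 and 386 CPM in Mobp-high mice 11, 9, 7, 12 and 10, against 293, 290, 288, 262 and 228 CPM in Mobp-low mice 3, 14, 13, 15 and 8. The means were 429.6 ± 47.2 CPM in Mobp-high and 272.3 ± 27.9 CPM in Mobp-low mice (SD, n = 5 each), a ratio of 1.58. Between the highest and the lowest mouse the ratio was 2.24. The upper boundary was clear of counting error, since the last mouse inside (mouse 10, 386 CPM, 95% Wilson interval 379.6 to 393) and the first outside (mouse 4, 351 CPM, 346 to 356) did not overlap. The lower boundary was not, as mouse 3 inside (293 CPM, 287 to 299) and mouse 1 outside (298 CPM, 293 to 304) overlapped. Each single run put the same 5 mice on top. Runs L001_1 and L003_2 placed 4 of the 5 Mobp-low mice among their lowest 5, and the other 2 runs placed all 5 there.

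No difference in genotype or sex make-up was detected between the Mobp groups (Fisher's exact test, two-sided, p = 1 for each). Both Mobp-high males were N/N and all Mobp-low males were J/J, so sex could be fitted beside genotype over all 10 mice but males could not be compared alone. Gene reads per mouse ran from 28438720 to 36877542 in Mobp-high and from 27405386 to 36259579 in Mobp-low mice (exact permutation test, two-sided, p = 0.571, smallest possible 0.00794). Mice 10 and 11 shared a cage and are both Mobp-high. The series text gives equal numbers of females and males per genotype, whereas the sample labels used here give 5 females and 3 males in each. P-values measure the spread between these mice.

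**Figure D1:**
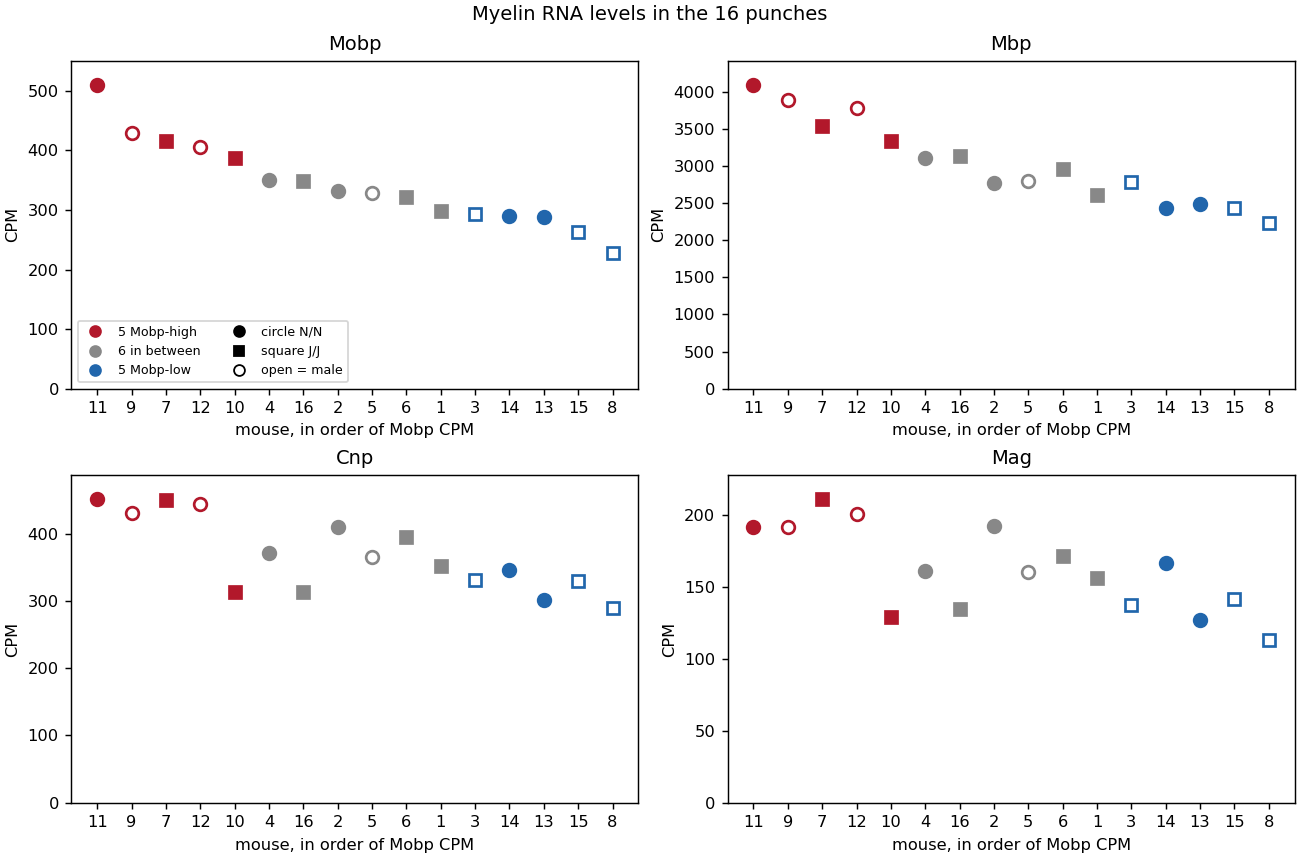
CPM of Mobp, Mbp, Cnp and Mag in each of the 16 punches, with mice in order of Mobp from high to low. Red marks the 5 Mobp-high, grey the 6 in-between and blue the 5 Mobp-low mice, circles are N/N, squares J/J and open symbols males. Mbp broadly follows the order of Mobp, while mouse 10 drops to 313 CPM for Cnp and 129 CPM for Mag.

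Over all genes, 182 were higher and 292 lower in Mobp-high than in Mobp-low punches among 15705 tested (edgeR's quasi-likelihood test with genotype in the model, Benjamini-Hochberg adjusted p under 0.05, Mobp left out). These are 1.16% and 1.86% of the genes tested, and together 3.02%. The median log2 fold change over all genes was -0.01, and 48.6% of genes lay above 0. Without a threshold on multiple tests, 20.7% of genes had a p under 0.05. DESeq2 called 477 higher and 633 lower. Calls with 1 mouse left out ranged from 47 higher and 77 lower without Mobp-low mouse 13 to 426 higher and 680 lower without Mobp-high mouse 12. Each of the 474 genes called in the comparison kept its direction in every one of these fits that tested it. The fits share all but 1 mouse with the comparison that picked the genes, so kept directions say little about other mice.

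Many genes of mature oligodendrocytes were higher in Mobp-high punches. Of 60 genes on 5 lists (myelin proteins, myelin lipid enzymes, oligodendrocyte transcription factors, junctions and transport, and other mature oligodendrocyte genes), 29 were called higher, beside the 1.16% of all genes, and 0 lower. With 1 mouse left out, 16 (without mouse 13) to 41 (without mouse 10) were called higher and 0 lower. All 60 had a log2 fold change above 0, with a median of 0.39. In 25 of them every Mobp-high mouse lay above every Mobp-low mouse, which held for 2.48% of all genes. Mobp is a gene of the same cells, and the lists were chosen with earlier results of these data known. This check of the label is therefore not independent of the ranking or of those results. In bulk tissue, more cells of a type and more RNA per cell cannot be told apart.

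Of 15 myelin protein genes, 9 were called higher, with a list median of 0.41 on the log2 scale. Without mouse 13 the count was 5, and with any other mouse left out it was 6 to 11. Mbp, the basic protein that holds the cytoplasmic faces of the myelin membrane together, stood at 4088, 3894, 3535, 3787 and 3333 CPM in Mobp-high mice 11, 9, 7, 12 and 10, against 2783, 2432, 2486, 2441 and 2231 CPM in Mobp-low mice 3, 14, 13, 15 and 8. The groups did not overlap, and the log2 fold change was 0.56 (SE 0.08, edgeR adjusted p = 0.00526). Ermn, a cytoskeletal protein of myelinating cells, was at 131, 136, 116, 118 and 106 CPM in the same Mobp-high mice, against 90.9, 76.4, 68.9, 74.1 and 78.6 CPM in the Mobp-low ones. Its log2 fold change of 0.63 (SE 0.09, edgeR adjusted p = 0.00526) was the highest among the myelin proteins. Opalin, a membrane glycoprotein found in oligodendrocytes, was at 31.1, 25.8, 28.6, 27.5 and 22.8 CPM in the Mobp-high mice, against 18.5, 17.4, 17.0, 19.3 and 17.2 CPM in the Mobp-low mice (log2 fold change 0.59, SE 0.08). The 5 Mobp-low values of Opalin lay close together, and the lowest Mobp-high value, that of mouse 10, was nearest to them. Tspan2, a tetraspanin of myelin, Mal, a raft proteolipid, and Mog, an outer surface protein, had log2 fold changes of 0.49, 0.54 and 0.50. Cldn11, which forms the tight junctions of myelin, and Pllp were called as well, at 0.41 and 0.31.

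The 6 myelin protein genes that did not pass included defining ones. Mag, an adhesion protein of the membrane next to the axon, was at 192, 192, 211, 201 and 129 CPM in Mobp-high mice 11, 9, 7, 12 and 10, against 138, 167, 127, 142 and 113 CPM in Mobp-low mice 3, 14, 13, 15 and 8. Mouse 10 lay below 3 of the 5 Mobp-low mice, and the log2 fold change was 0.38 (SE 0.13, edgeR adjusted p = 0.140). Cnp, an enzyme of non-compact myelin, was at 451, 431, 450, 444 and 313 CPM in the Mobp-high mice and at 332, 346, 301, 329 and 290 CPM in the Mobp-low mice (log2 fold change 0.35, SE 0.10, edgeR adjusted p = 0.0672). As with Mag, 4 Mobp-high mice lay above all Mobp-low mice and mouse 10 lay among them. Omg, a myelin-associated protein that neurons make too, had a log2 fold change of 0.01 (SE 0.05). Cntn2, Jam3 and Pmp22 had 0.21, 0.20 and 0.09. Ranking the mice by Mog, Mag or Cnp in place of Mobp kept mice 11, 9, 7 and 12 in the upper 5 each time and never mouse 10, and by Mag or Cnp mouse 10 fell into the lowest 5.

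Among 8 genes of myelin lipid synthesis, 4 were called higher, or 2 without mouse 13 and 3 to 6 with another mouse left out. Aspa, the enzyme that splits N-acetylaspartate and so frees acetate for lipid synthesis, was at 32.4, 34.0, 31.8, 28.3 and 26.0 CPM in Mobp-high mice 11, 9, 7, 12 and 10, against 24.2, 17.5, 18.8, 20.9 and 21.0 CPM in Mobp-low mice 3, 14, 13, 15 and 8. The groups did not overlap (log2 fold change 0.59, SE 0.09, edgeR adjusted p = 0.00930). Ugt8a, which makes galactosylceramide, averaged 99.5 ± 9.33 CPM in Mobp-high and 68.3 ± 7.21 CPM in Mobp-low mice (SD, n = 5 each), a log2 fold change of 0.53. Elovl7, a fatty acid elongase, and Cers2, which makes very-long-chain ceramides, had log2 fold changes of 0.34 and 0.25. Fa2h, Gal3st1, Gltp and Elovl1 were not called, at 0.48, 0.23, 0.23 and 0.08. Of 22 genes of cholesterol synthesis, 0 were called (1 lower without mouse 7), and their median log2 fold change was -0.11. Of these, 17 lay below 0, and 8 had an unadjusted edgeR p under 0.05, beside 20.7% of all genes.

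Of 9 transcription factors of the lineage, 2 were called higher, and the median log2 fold change was 0.18. The count was 1 when any of mice 11, 9, 7, 8, 15, 13 or 14 was left out, where Nkx6-2 lost its call, and 3 without mouse 10. St18, a zinc finger factor, was at 17.4, 17.4, 15.9, 15.5 and 13.8 CPM in Mobp-high mice 11, 9, 7, 12 and 10, against 11.2, 10.2, 9.12, 11.1 and 10.3 CPM in Mobp-low mice 3, 14, 13, 15 and 8. No value overlapped (log2 fold change 0.61, SE 0.09, edgeR adjusted p = 0.00526). Nkx6-2, a homeobox factor, was at 6.82 ± 1.02 CPM in Mobp-high and 4.62 ± 0.681 CPM in Mobp-low mice (SD, n = 5 each), with an overlap between the groups. Myrf, which switches on myelin genes at the end of differentiation, had a log2 fold change of 0.45 (SE 0.13, edgeR adjusted p = 0.0852). Olig1, Olig2 and Sox10, which precursors share with mature cells, had 0.18, 0.15 and 0.25 and were not called.

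Of 8 junction and transport genes, 3 were called higher, or 1 without mouse 9, 7, 8 or 13 and 5 without mouse 12 or 10. Among them were connexins, which couple oligodendrocytes to each other, to astrocytes or across their own myelin layers. Gjc3 was at 108, 100.0, 99.5, 90.8 and 92.8 CPM in Mobp-high mice 11, 9, 7, 12 and 10, against 80.1, 74.6, 74.4, 73.5 and 66.4 CPM in Mobp-low mice 3, 14, 13, 15 and 8. All Mobp-high values lay above all Mobp-low values (log2 fold change 0.40, SE 0.06, edgeR adjusted p = 0.00930). Gjb1 had 0.55, with Mobp-high mouse 10 inside the Mobp-low range. Trf, the iron carrier transferrin, had 0.48 (SE 0.12, edgeR adjusted p = 0.0503).

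Of 20 other genes enriched in mature oligodendrocytes, 11 were called higher, with a median of 0.40, or 7 without mouse 13 and 9 to 16 with another mouse left out. Anln, a septin-binding scaffold of the myelin sheath, was at 60.7, 77.1, 65.2, 65.2 and 51.9 CPM in Mobp-high mice 11, 9, 7, 12 and 10, against 42.4, 37.2, 34.9, 39.7 and 40.5 CPM in Mobp-low mice 3, 14, 13, 15 and 8. Its log2 fold change of 0.70 (SE 0.10, edgeR adjusted p = 0.00526) was the highest among the 60. Plekhb1, a membrane-binding protein, averaged 444.7 ± 35.9 CPM in Mobp-high and 317 ± 17.2 CPM in Mobp-low mice (SD, n = 5 each), with a log2 fold change of 0.46. Il33, a nuclear cytokine that oligodendrocytes hold in the adult brain, and Qdpr, which recycles tetrahydrobiopterin, had 0.45 and 0.37. Hapln2, Lpar1, S1pr5, Trim59, Prr5l, Ppp1r14a and Cryab were also called.

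Genes of earlier stages of the lineage gave a mixed picture. Of 8 genes of newly formed oligodendrocytes, 2 were called higher and 1 lower, beside 1.16% and 1.86% of all genes. The list median was -0.05. Bcas1 was at 310.3, 248, 235, 242 and 229.9 CPM in Mobp-high mice 11, 9, 7, 12 and 10, against 188, 169, 181, 160.4 and 147 CPM in Mobp-low mice 3, 14, 13, 15 and 8. It marks cells at the start of myelination and stays on in myelin, and its groups did not overlap (log2 fold change 0.54, SE 0.08, edgeR adjusted p = 0.00703). Enpp6, a choline phosphodiesterase of newly forming cells, had 0.58, and Rras2, a small GTPase, had -0.47 (edgeR adjusted p = 0.0371). The call of Enpp6 ended in 5 and that of Rras2 in 6 of the 10 fits that left out 1 mouse. Gpr17, a receptor of cells committed to differentiate, had -0.14 (SE 0.08). Of 8 precursor genes, edgeR called 0 (1 had an unadjusted p under 0.05), 7 lay below 0 and the median was -0.15. Pdgfra was at 56.2, 58.1, 66.1, 66.5 and 55.1 CPM in Mobp-high mice 11, 9, 7, 12 and 10, against 60.0, 70.8, 75.7, 66.8 and 57.4 CPM in Mobp-low mice 3, 14, 13, 15 and 8. The Pdgfra groups overlapped.

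**Figure D2:**
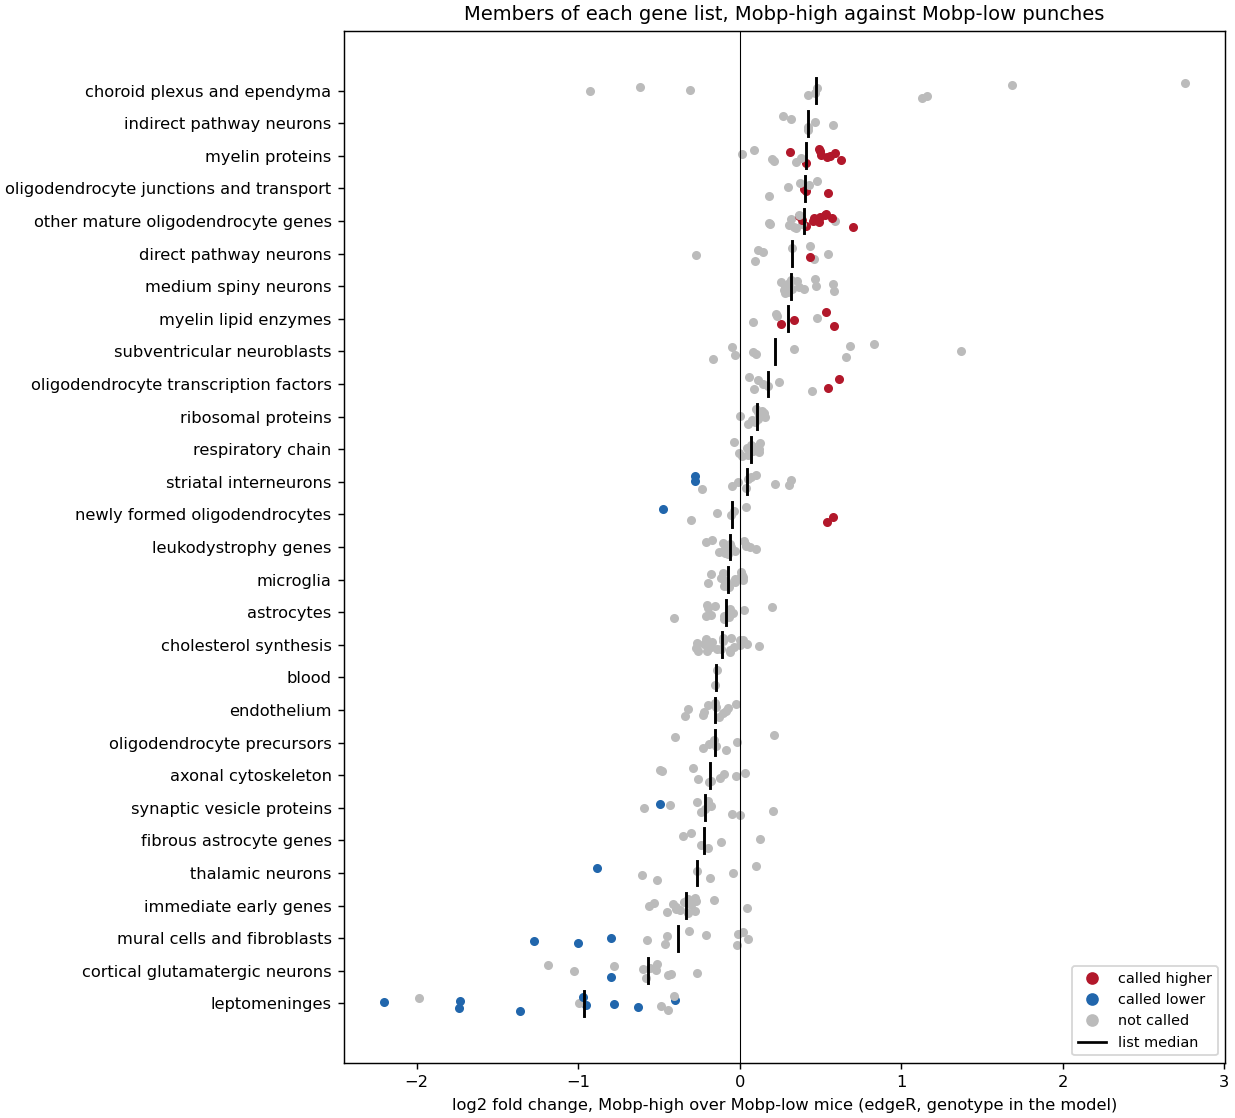
Log2 fold change of each gene list's members, Mobp-high over Mobp-low punches, with 1 row per list in order of the list median (black bar). Red points are genes called higher, blue points genes called lower and grey points genes not called. The 60 members of the 5 mature oligodendrocyte lists lie right of 0, the 14 leptomeningeal genes lie left of it, and most other lists straddle it.

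Genes on none of 28 lists, not counting a leptomeningeal list drawn up later, made up 433 of the 474 called. Prr18, a proline-rich protein gene, was at 84.0, 80.8, 75.8, 76.8 and 74.3 CPM in Mobp-high mice 11, 9, 7, 12 and 10, against 59.1, 55.1, 56.0, 51.5 and 48.1 CPM in Mobp-low mice 3, 14, 13, 15 and 8. The spread within each group was small beside the gap between them (log2 fold change 0.51, SE 0.06, edgeR adjusted p = 0.00353). The other unlisted genes called higher with the smallest p were B3galt5, a galactosyltransferase (0.53), Sox2ot, a long non-coding RNA over Sox2 (0.51), Prrg1 (0.48), Evi2a, within the Nf1 gene (0.54), Arrdc3, an arrestin-like protein (0.44), Gatm, which makes the precursor of creatine (0.40), and Carhsp1, an RNA-binding protein (0.39). Reads of Sox2ot and Evi2a may be shared with the genes they overlap. Genes with log2 CPM most like Mobp over 16 mice were Prr18 (Pearson's r = 0.98), Mbp (0.97), Bcas1 (0.97), Dbndd2 (0.96) and Gjc3 (0.95). They are the top of a ranking over all genes, so no p is attached. Their Spearman's rho ran from 0.909 for Bcas1 to 0.971 for Prr18 and Dbndd2. Without mice 11 and 8, at the ends of the Mobp range, r ran from 0.916 for Gjc3 to 0.984 for Prr18. The same calculation over all 16 mice gave 0.954 for Gjc3 and 0.979 for Prr18.

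The punches also differed in genes of neighbouring tissue. Of 12 genes of cortical glutamatergic neurons, all lay below 0 in Mobp-high punches, with a median log2 fold change of -0.57. A single one, Cux2, a factor of upper cortical layers, was called lower, beside 1.86% of all genes. Without mouse 11 or 12 the count was 5, and without mouse 13 it was 2. Cux2 was at 25.7, 27.8, 32.4, 36.1 and 44.8 CPM in Mobp-high mice 11, 9, 7, 12 and 10, against 58.6, 52.1, 62.6, 58.8 and 63.2 CPM in Mobp-low mice 3, 14, 13, 15 and 8. The groups did not overlap (log2 fold change -0.80, SE 0.12, edgeR adjusted p = 0.00881). Summed over the list, cortical genes came to 507.5 to 1169 CPM in Mobp-high and 1362 to 1956 CPM in Mobp-low mice, and none was at 0 in any mouse. Slc17a7, the vesicular glutamate transporter of cortical neurons, was at 255, 552, 716, 676 and 569 CPM in the Mobp-high mice and at 1009, 824, 968, 876 and 1214 CPM in the Mobp-low mice. Its log2 fold change was -0.78 (SE 0.23, edgeR adjusted p = 0.105), with mouse 11 far below the rest of its group. Slc17a6, the glutamate transporter of thalamic neurons, was the 1 gene of 7 on the thalamic list called lower (-0.88, SE 0.15, edgeR adjusted p = 0.0123).

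Most genes of medium spiny neurons lay on the other side. All 16 genes shared by medium spiny neurons were above 0, with a median of 0.32, but 0 passed the adjusted threshold and 10 had an unadjusted p under 0.05. Their sum was 13250 to 17694 CPM in Mobp-high and 8340 to 14282 CPM in Mobp-low mice, so the groups overlapped. In simulated data the test recovered 25.4% of genes changed by 0.32, so 0 calls do not show equal levels. Drd2, the dopamine receptor of the indirect pathway, was at 175, 159.9, 138, 132 and 155 CPM in Mobp-high mice 11, 9, 7, 12 and 10, against 93.7, 149.9, 106, 126 and 71.8 CPM in Mobp-low mice 3, 14, 13, 15 and 8. Its log2 fold change was 0.43 (SE 0.17, edgeR adjusted p = 0.197). Of 9 direct pathway genes 8 lay above 0. Ebf1 was called higher (0.44, SE 0.11, edgeR adjusted p = 0.0484), a call that ended in 8 of the 10 fits that left out 1 mouse. Eya1 lay below 0 (-0.27, edgeR adjusted p = 0.0764), and 1 direct pathway gene was called lower without mouse 10. Of 6 indirect pathway genes 0 were called. Of 12 interneuron genes, 7 lay above 0 (median 0.04), and 1 was called higher without mouse 10. Npy and Sst were called lower, at -0.28 and -0.27, and lost their calls in 6 and 8 of the 10 fits. Of 11 synaptic vesicle genes Syp was called lower (-0.49, edgeR adjusted p = 0.0440), and lost its call in 7 of them. Over all genes, 1.16% were called higher and 1.86% lower.

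Some of the lowest fold changes belonged to genes of the leptomeninges, the membranes on the brain surface. Slc13a4, a sulphate carrier, was at 1.37, 1.41, 1.003, 2.12 and 2.05 CPM in Mobp-high mice 11, 9, 7, 12 and 10, against 7.29, 4.50, 9.56, 5.77 and 9.21 CPM in Mobp-low mice 3, 14, 13, 15 and 8. Its log2 fold change was -2.20 (SE 0.25, edgeR adjusted p = 0.00493). Slc22a6, an organic anion carrier, was at 1.12, 1.03, 1.65, 1.64 and 1.34 CPM in the Mobp-high mice and at 4.19, 3.07, 5.66, 3.94 and 6.32 CPM in the Mobp-low mice (-1.73, SE 0.20, edgeR adjusted p = 0.00463). Neither gene had an overlap between the groups. A list of 14 leptomeningeal genes was drawn up after these values were seen and holds both, so its counts are a description. All 14 were below 0 (median -0.96), and 9 were called lower, beside 1.86% of all genes. Their sum was 66.0 to 81.0 CPM in Mobp-high and 111 to 166 CPM in Mobp-low mice, with none at 0 in any mouse. Col1a2, Col1a1 and Lum, matrix genes of fibroblasts, were the 3 of 12 mural and fibroblast genes called lower, beside the same 1.86%. Their log2 fold changes were -1.28, -0.998 and -0.79. Of the 10 fits that left out 1 mouse, the call of Col1a1 ended in 8, that of Lum in 7 and that of Col1a2 in 1, without Mobp-high mouse 10.

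Other unlisted genes called lower with the smallest p were Grin3a, a subunit of the NMDA receptor (-0.58, SE 0.06, edgeR adjusted p = 0.00353), Sertm1 (-0.81), Ptgs2, the inducible cyclooxygenase (-0.86), Car4, a membrane carbonic anhydrase (-0.58), Tmem163, a zinc carrier of vesicles (-0.54), and Ebf2, a transcription factor (-1.93). Grin3a was at 27.2, 28.7, 32.3, 31.7 and 35.7 CPM in Mobp-high mice 11, 9, 7, 12 and 10, against 46.9, 41.8, 48.7, 50.0 and 49.6 CPM in Mobp-low mice 3, 14, 13, 15 and 8. Every Mobp-high value of Grin3a lay below every Mobp-low value, which held for 3.01% of all genes.

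**Figure D3:**
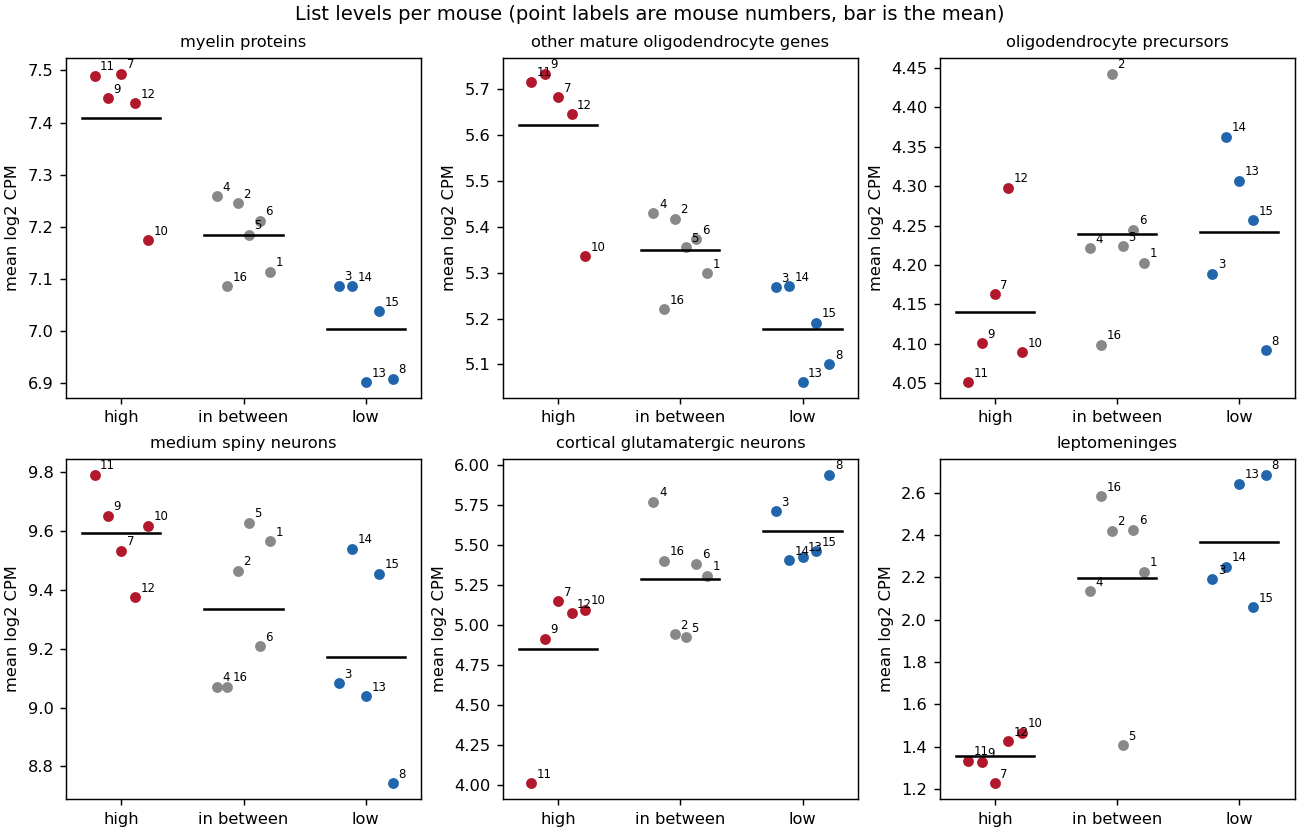
Mean log2 CPM of 6 gene lists in each mouse, with Mobp-high mice on the left, the 6 in between in the middle and Mobp-low mice on the right (numbers are mice, bars are means). For myelin proteins mouse 10 stands at 7.17, apart from 7.44 to 7.49 in the other 4 Mobp-high mice. For leptomeninges the Mobp-high mice and the in-between mouse 5 stand at 1.23 to 1.46 and all other mice at 2.06 or more.

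No gene of astrocytes, microglia or vessel lining passed the test. Of 16 astrocyte, 16 microglia and 12 endothelial genes, edgeR called 0 in either direction, and 4, 1 and 3 had an unadjusted p under 0.05. Their median log2 fold changes were -0.08, -0.07 and -0.15. All 12 endothelial genes were below 0, and 3 of them were called lower without mouse 7. Of 6 genes that fibrous astrocytes of white matter make at high level, 0 were called (1 lower without mouse 12) and 5 were below 0. Gfap, the intermediate filament of those cells, was at 62.4, 59.1, 57.6, 84.1 and 56.2 CPM in Mobp-high mice 11, 9, 7, 12 and 10, against 70.1, 61.5, 124, 44.8 and 60.2 CPM in Mobp-low mice 3, 14, 13, 15 and 8. The Gfap values of the groups were interleaved. Of 10 axonal cytoskeleton genes 0 were called and 9 were below 0 (median -0.18), and of 16 leukodystrophy genes outside the myelin lists 0 were called (median -0.06). Lists of immediate early genes, respiratory chain, ribosomal proteins, subventricular neuroblasts and blood held 0 called genes. Of 16 immediate early genes 15 were below 0 (median -0.33), and all 12 ribosomal protein genes were above 0 (median 0.11). Without mouse 12, 2 immediate early, 2 axonal cytoskeleton genes and 1 astrocyte gene were called lower. Of 10 choroid plexus and ependyma genes 0 were called. Ttr, the transthyretin gene of choroid plexus, reached 22.6 CPM in Mobp-high mouse 11 and 15.03 CPM in Mobp-high mouse 12, and 1.90 CPM or less in the other 14 mice. Many mature oligodendrocyte genes were thus higher in Mobp-high punches. Of 6 fibrous astrocyte genes and 8 precursor genes, 0 passed the test in either direction. Genes that did not pass are not shown to be equal, and precursors lie in grey and white matter alike. Whether Mobp-high punches held more white matter was not tested. The groups are therefore named by Mobp.

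By their medians over the 10 mice, cortical genes ran against Mobp and medium spiny neuron genes with it, although 1 and 0 of them were called. Their part in the differences was not tested, and 2 fits were added after the data were seen. With the cortical level of each mouse in the model, 0 genes were called (edgeR, smallest adjusted p 0.28, 898 genes at an unadjusted p under 0.05). That level (mean log2 CPM) was 4.01 to 5.15 in Mobp-high and 5.40 to 5.94 in Mobp-low mice. It separated the groups without overlap, so this fit can hardly tell the level and the group apart, and the count of 0 decides nothing. The 474 genes kept their direction. The median of the myelin proteins was then 0.35, with 15 of 15 above 0, and that of other mature oligodendrocyte genes 0.38. The median of the medium spiny neuron genes was 0.05 and that of the leptomeningeal genes -0.96. With the medium spiny neuron level in the model, 1 gene was called higher and 6 lower, and the myelin protein median was 0.28.

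The 6 in-between mice, which the comparison did not use, spanned 0.23 on the log2 Mobp scale, against 1.16 over the 10. Slopes on log2 Mobp in these mice called 0 of 15970 genes (edgeR with genotype in the model, smallest adjusted p 0.0942, 1713 genes or 10.7% at an unadjusted p under 0.05). Dropping the genotype term left 534 genes under 0.05 unadjusted. In simulated data the slope test recovered 11.9% of genes with a log2 change of 0.58, so 0 calls do not show that no gene followed Mobp. Of the 182 genes called higher in Mobp-high punches, 77 (42.3%) had a slope above 0, beside 51.6% of all genes. Of the 292 called lower, 68 (23.3%) had a slope below 0, beside 48.4% of all genes. Mbp had a slope of 1.12, Plekhb1 1.05 and Prr18 1.18 (log2 units per doubling of Mobp), whereas Il33 had -0.99. Of the 15 myelin protein genes 9 had a slope above 0 (median 0.02), of the 16 medium spiny neuron genes 0 (median -2.82), of the 12 cortical genes 12 (median 1.81) and of the 14 leptomeningeal genes 11 (median 1.52). The smallest p values belonged to Srgap1 (-4.34), Cd4 (-3.66), Me2 (-4.45) and Zdhhc14 (-3.22).

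**Figure D4:**
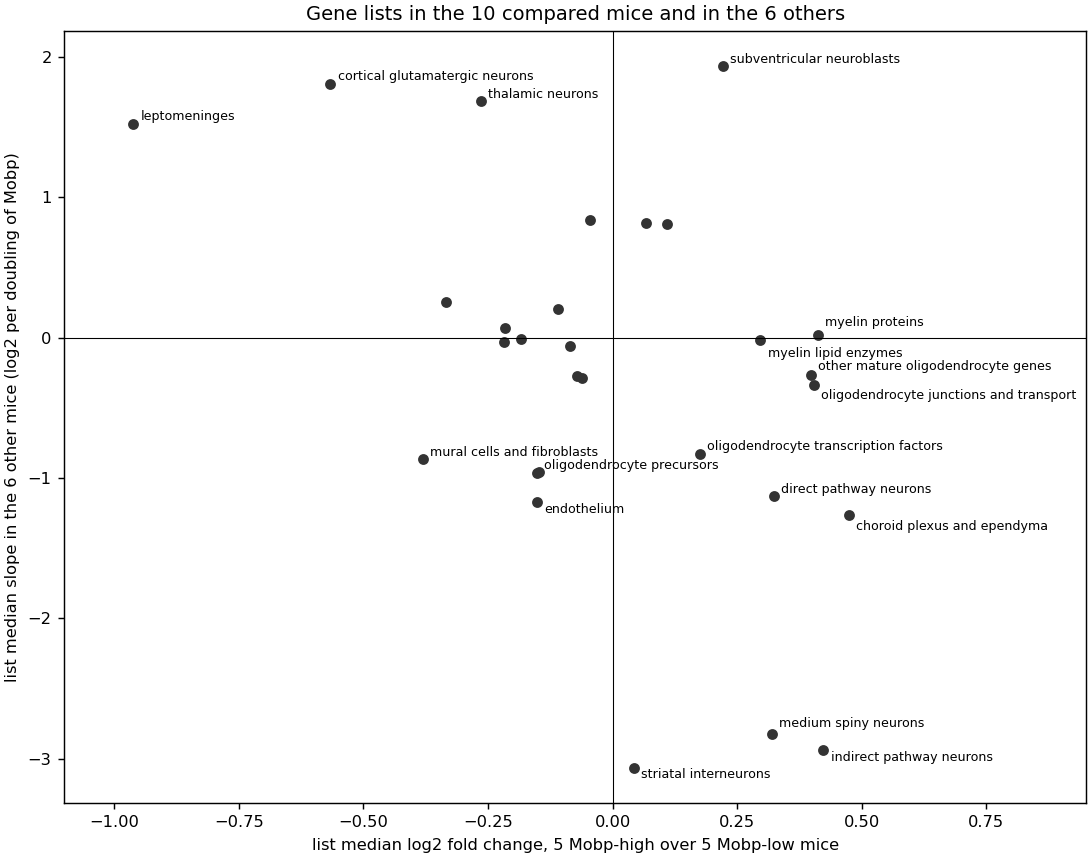
Median of each gene list in the 10 compared mice (x axis, log2 fold change, Mobp-high over Mobp-low) against its median slope in the 6 in-between mice (y axis, log2 change per doubling of Mobp), 1 point per list. The medium spiny neuron list lies at 0.32 and -2.82 and the cortical list at -0.57 and 1.81, on opposite sides of 0 in the 2 sets of mice.

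Whether genes went with Mobp differently in N/N and J/J mice was tested over all 16 mice with an interaction term. Of 16280 genes, 0 were called (edgeR, smallest adjusted p 0.859, 900 genes or 5.53% at an unadjusted p under 0.05). The smallest p values belonged to Tnfrsf25, Actl10, 4933432I09Rik and Rad54b. A count of 0 does not show that genes went with Mobp alike in N/N and J/J mice.

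The number of calls depended on how many mice were taken and on the gene that ranked them. The 4 highest against the 4 lowest gave 102 higher and 85 lower, 6 against 6 gave 48 and 44, and 8 against 8 gave 0 and 0 (edgeR, smallest adjusted p 0.176, 1566 genes at an unadjusted p under 0.05). Ranking by Mog gave 37 higher and 19 lower, by Mag 38 and 5, and by Cnp 38 and 6. Females alone gave 29 higher and 191 lower. Of the 474 genes called, 115 stayed called without mouse 13, 148 without mouse 9, 169 without mouse 8 and 471 without mouse 12. The named genes were mostly picked by small p in this comparison, so they do not stand for all calls. Of 46 named genes that were called, 32 stayed called whichever of the 10 mice was left out. Among the rest, Elovl7 was lost without Mobp-low mouse 13 alone, and Cers2, Nkx6-2, Gjb1, Enpp6, Rras2, Ebf1, Npy, Sst, Syp, Lum and Col1a1 were lost in 5 to 8 of these fits. None of the 46 changed direction in any of up to 34 settings, which do not include the slopes in the 6 in-between mice. In those mice 42.3% of all genes called higher had a slope above 0, and 23.3% of those called lower had a slope below 0.

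**Figure D5:**
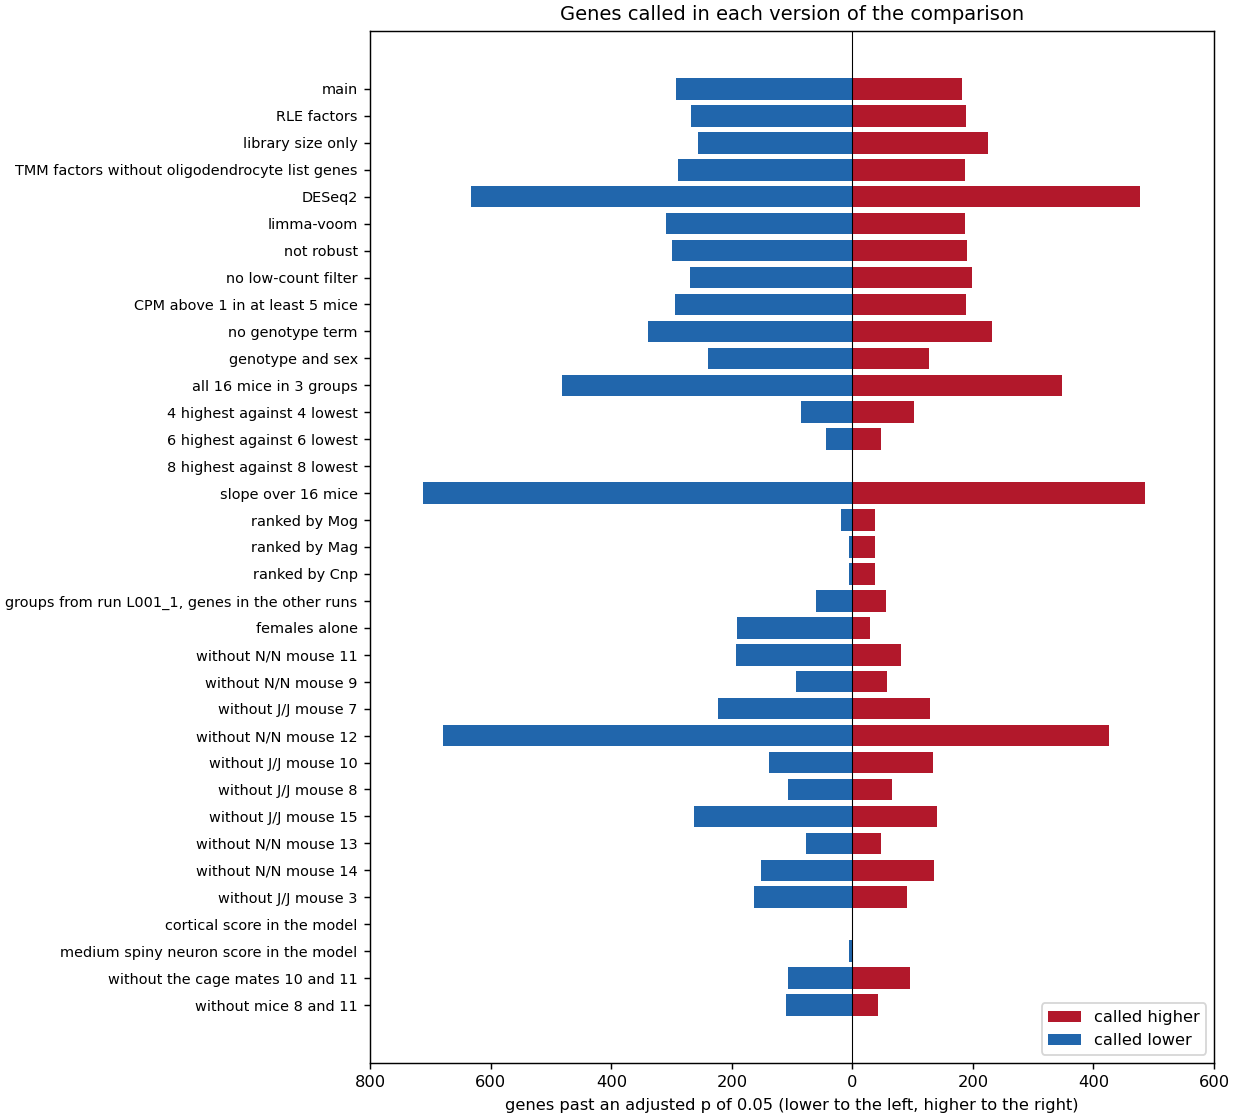
Genes called in each version of the comparison, with those higher in Mobp-high punches to the right and those lower to the left (adjusted p under 0.05). Counts run from 0 with 8 against 8 mice to 486 higher and 713 lower for a slope over 16 mice, and 182 and 292 for the 5 against 5 described here (top row).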

How the data were processed

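The authors deposited read counts per gene, 1 table for each of 64 mouse and run combinations, with 23420 genes each. Per the submitters' processing notes, reads were checked with FastQC 0.11.3, aligned to mm10 with TopHat2 2.1.0 and counted with HTSeq 0.6.1p1. The annotation release and strand setting are not given in the sources used here. Rows that name no gene (19.95% of reads in no gene, 0.78% ambiguous, 21.84% not unique) were left out, so near-identical genes are undercounted. Runs were summed per mouse, 534034193 gene reads in all.

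Tests used edgeR 4.0.16 in R 4.3.3: TMM factors (0.969 to 1.02), a low-count filter (minimum count 10, total 15), the robust quasi-likelihood F test and Benjamini-Hochberg adjustment at 0.05. The biological coefficient of variation was 10.1%. SE was taken from the fold change and its F value (|log2 fold change|/√F). List levels are mean log2 CPM with a prior count of 2. DESeq2 1.42.0, limma-voom 3.58.1 and other fits served as alternatives. Tests were tried on simulated data. At log2 changes of 0.32, 0.58 and 1, the high against low test recovered 25.4%, 92.5% and 98.5% of changed genes. The slope in the 6 in-between mice recovered 0%, 11.9% and 78.8%, and the interaction 0%, 0% and 4.55%. Unchanged genes made up 2.7%, 9.09% and 0% of the calls of these 3 tests. Counts of 0 called genes therefore do not show that levels were equal. Intervals cover counting error only. The groups, the members and the gene lists were chosen with earlier results of these data known. Named genes were Mobp, up to 4 called members per list by p (or the member of smallest p), the 8 higher and 8 lower unlisted genes of smallest p, the 5 most like Mobp, and the 4 of smallest p in the interaction and in the 6 other mice. Other list members named in the text were added beside them. Drd1 is listed as Drd1a, Msmo1 as Sc4mol and Hbb-bs as Beta-s. Values of some single genes, and a planned ranking by 1 of them, are not reported here.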

Additional observations from a re-analysis of the deposited data

Results flagged for a closer look

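Dixon's test at the 95% level marked 15 of 200 groups of 5 mice (7.5%), and chance marks about 1 in 20. Mouse 10, the last of the Mobp-high mice, stood below the rest of its group in 5 of them: Cers2 at 58.9 CPM, Qdpr at 201 CPM, and the mean log2 CPM of the myelin proteins (7.17), of junctions and transport (5.07) and of other mature oligodendrocyte genes (5.34). It stood above them for Ebf2, at 0.447 CPM. Mouse 11, first in Mobp, stood above the other Mobp-high mice for Bcas1 (310.3 CPM) and Ndufa1 (66.0 CPM) and below them for the cortical list (4.01 mean log2 CPM). Other Mobp-high mice marked were mouse 9 for Vcan (55.8 CPM) and mouse 12 for Igfbpl1 (5.87 CPM). Among Mobp-low mice, mouse 13 was marked for Col1a2 (22.8 CPM) and Col1a1 (13.6 CPM), mouse 14 for Psap (1516 CPM) and mouse 3 for Sox2ot (35.0 CPM).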

How the results depend on the processing

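In the 6 in-between mice, which the comparison did not use, 77 of the 182 genes called higher had a slope above 0. Of the 292 called lower, 68 had a slope below 0 there. The alternatives below share mice with the comparison of Mobp-high with Mobp-low punches. Every gene called in that comparison kept its direction in every one of these alternatives that tested it. The counts, given as higher and lower, stayed within 1.5 times of 182 and 292 with RLE factors (188 and 268), limma-voom (186 and 309), a fit that was not robust (190 and 300), other low-count filters, TMM factors without oligodendrocyte genes, no genotype term (232 and 339), and genotype with sex (127 and 239). Library size alone gave 225 and 256, so 46.8% of calls were higher, against 38.4% with TMM. DESeq2 gave 477 and 633, all 16 mice in 3 groups 348 and 482, a slope over 16 mice 486 and 713, and a threshold of 0.1 gave 461 and 658. Counts fell with 4 against 4 mice (102 and 85), 6 against 6 (48 and 44), 8 against 8 (0 and 0), ranking by Mog (37 and 19), Mag (38 and 5) or Cnp (38 and 6), groups set in run L001_1 and genes read in the other runs (55 and 60), and females alone (29 and 191). Alternatives chosen after seeing the data gave 0 and 0 with the cortical level in the model, a level that itself separated the groups. They gave 1 and 6 with the medium spiny neuron level, 96 and 107 without mice 10 and 11, and 42 and 110 without mice 8 and 11. Leaving out 1 mouse gave 47 to 426 higher and 77 to 680 lower. Without mouse 11 the counts were 81 and 193, without mouse 9 they were 57 and 93, without mouse 8 they were 66 and 107, and without mouse 3 they were 91 and 164. Without mouse 10, 139 were lower, and without mouse 14, 152. The causes of these changes in count were not tested.

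Values that turned sign in these alternatives all belong to genes not called. Rad54b turned to -0.0581 (genotype and sex), -0.0613 (4 against 4), -0.0151 (6 against 6), -0.0666 (8 against 8), -0.0648 (slope), -0.0600 (ranked by Mog), -0.55 (females), -0.0903 (medium spiny level) and -0.0114 (without 8 and 11), and ran from -0.143 to 0.121 with 1 mouse left out. Zdhhc14 turned to 0.0949 (Mag), 0.138 (Cnp) and 0.0455 (females), and ran from -0.135 to 0.0631 with 1 mouse left out. Actl10 turned to 0.0652 (8 against 8), 0.0467 (run L001_1) and 0.0550 (cortical level), and ran from -0.337 to 0.0134 with 1 mouse left out. Me2 turned to -0.0594 (Mog), -0.0177 (cortical) and -0.143 (medium spiny), Srgap1 to -0.0889 (medium spiny), Psap to 0.0306 (Mag) and 0.0265 (Cnp), Rpl7 to -0.0260 (Mag) and -0.00931 (Cnp), and Ndufa1 to -0.000918 (Mag) and -0.0551 (cortical). No paired analysis was possible because each mouse number occurs once and pairs no mice between groups. Counting intervals of Mobp overlapped at the lower group boundary and between several neighbours inside the groups.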
